A study of Mus musculus with 24 samples.

Results

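The LXR and cholesterol efflux genes described here are 10 genes chosen by name, of 35770 named genes measured in mouse bone marrow-derived macrophages (BMDMs). They are the receptors Nr1h2 and Nr1h3, the transporters Abca1 and Abcg1, the apolipoproteins Apoe, Apoc1 and Apoc2, and the lipid-handling genes Mylip, Lpcat3 and Soat1. BMDMs from C57BL/6 mice were grown with M-CSF and then given 4 media: base medium that had held no cells (media), or medium conditioned for 48 h by LL2 lung carcinoma cells that were WT, KEAP1 KO or NRF2 KO (CM, 75% of the final volume). Each medium carried vehicle or 100 nM CDDO-Me, a synthetic triterpenoid known as an NRF2 activator, for 24 h, and each of the 8 groups had 3 libraries of polyA RNA. The macrophages themselves were WT in every group, so neither deletion can be checked in these libraries, and each deletion was present in LL2 lines carrying a single name in the labels. The age of the mice was not given in the sources used here, nor whether replicates came from separate animals, so p-values measure the spread between these samples.

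The liver X receptors LXRβ (Nr1h2) and LXRα (Nr1h3) are nuclear receptors that bind oxidised sterols and, as dimers with the retinoid X receptor, switch on genes that move cholesterol out of the cell. In macrophages, ABCA1 passes cholesterol to lipid-poor apolipoproteins and ABCG1 passes it to larger lipoprotein particles, while apolipoprotein E acts as a secreted acceptor. SREBP2 works in the opposite direction, since it raises sterol synthesis and uptake when cell cholesterol is low.

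Values are in TPM, a share of all transcripts corrected for their length, which the authors derived from pseudoaligned reads. The table holds no read counts, so the depth of each library is unknown and no counting interval can be given. Of the 24 libraries, 22 had between 17817 and 18993 genes above 0 TPM, whereas NRF2 KO CM replicate 3 had 15702 with vehicle and 16299 with CDDO-Me. All 7 macrophage markers were present, with a summed level of 14880 to 38340 TPM. All 8 fibroblast markers were present too, and their sum ran from 166 to 2130 TPM, lowest with CDDO-Me in WT CM (209 to 596 TPM) and in KEAP1 KO CM (166 to 797 TPM). Markers of other cell types were low: the summed TPM was at most 1.44 for lymphocyte, 5.18 for dendritic cell, 8.59 for adipocyte and 71.3 for neutrophil and granulocyte precursor markers, with Ly6g, which marks neutrophils, at most 0.989 TPM in any library. Epithelial markers summed to 3.11 to 4.29 TPM in WT CM/vehicle and 4.69 to 7.23 TPM in KEAP1 KO CM/vehicle, against at most 1.83 TPM in the other 6 groups, and Krt8 and Krt18 were at 0 in all libraries of both media groups only. In bulk RNA, fewer cells of a type and less RNA per cell cannot be told apart.

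Sequence upstream of the members is shown first because LXR targets carry a DR4 element, a direct repeat read here as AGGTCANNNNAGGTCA on both strands. With at most 1 mismatch in each repeat, the pattern occurred in the 250 bases upstream of 1 of the 10 members, Apoc1, and of 1.51% of 21770 protein-coding genes. When up to 2 mismatches in a repeat and 3 in all were allowed, a setting chosen after the Abca1 sequence was seen, it occurred upstream of 4 members and of 15.6% of genes. Of these, 3 are printed below from GRCm39, 5′ to 3′ on the gene's strand, ending at the base before the annotated start, with the DR4 match in capitals. Abca1 lies on the minus strand at chr4:53159901-53160150, Apoc1 on the minus strand at chr7:19427329-19427578 and Apoe on the minus strand at chr7:19434948-19435197.
Abca1: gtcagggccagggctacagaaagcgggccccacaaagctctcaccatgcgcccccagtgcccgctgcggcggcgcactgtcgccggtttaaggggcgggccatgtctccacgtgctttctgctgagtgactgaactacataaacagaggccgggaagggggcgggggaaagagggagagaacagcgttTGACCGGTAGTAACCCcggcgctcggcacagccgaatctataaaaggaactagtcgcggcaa
Apoc1: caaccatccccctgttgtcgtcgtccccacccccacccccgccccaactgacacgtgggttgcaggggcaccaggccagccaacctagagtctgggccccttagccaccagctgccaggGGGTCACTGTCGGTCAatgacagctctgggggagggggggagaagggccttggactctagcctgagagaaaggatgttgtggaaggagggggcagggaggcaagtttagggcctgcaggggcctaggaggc
Apoe: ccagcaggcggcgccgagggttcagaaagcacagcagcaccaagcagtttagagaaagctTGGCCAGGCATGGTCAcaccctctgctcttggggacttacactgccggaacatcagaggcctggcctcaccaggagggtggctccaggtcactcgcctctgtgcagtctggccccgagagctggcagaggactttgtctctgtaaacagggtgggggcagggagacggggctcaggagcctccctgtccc

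The Abca1 match sat 62 to 47 bases before the start, the Apoc1 match 131 to 116 bases and the Apoe match 190 to 175 bases before it. The NRF2 pattern TGANNNNGC occurred upstream of 3 members (Abcg1, Apoe and Nr1h3) and of 33.5% of genes, and in Apoe it overlapped the DR4 match. The STAT pattern TTCNNNGAA and the interferon pattern GAAANNGAAA occurred upstream of 0 of the 10 members, against 7.82% and 3.44% of genes. These matches describe letters in short windows and carry no measurement of binding. Apoe, Apoc1 and Apoc2 lie beside each other on the minus strand of chromosome 7, with 2705 bases between Apoe (19430034 to 19434947) and Apoc1 (19422540 to 19427328) and 10662 bases between Apoc1 and Apoc2 (19405504 to 19411877). The other members are spread over the genome, Nr1h2 on chromosome 7 (44199036 to 44203406), Nr1h3 on 2 (91014394 to 91033417), Abca1 on 4 (53030787 to 53159900), Abcg1 on 17 (31276649 to 31336969), Mylip on 13 (45543215 to 45565501), Lpcat3 on 6 (124639765 to 124684440) and Soat1 on 1 (156252095 to 156303864).

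**Figure D1:**
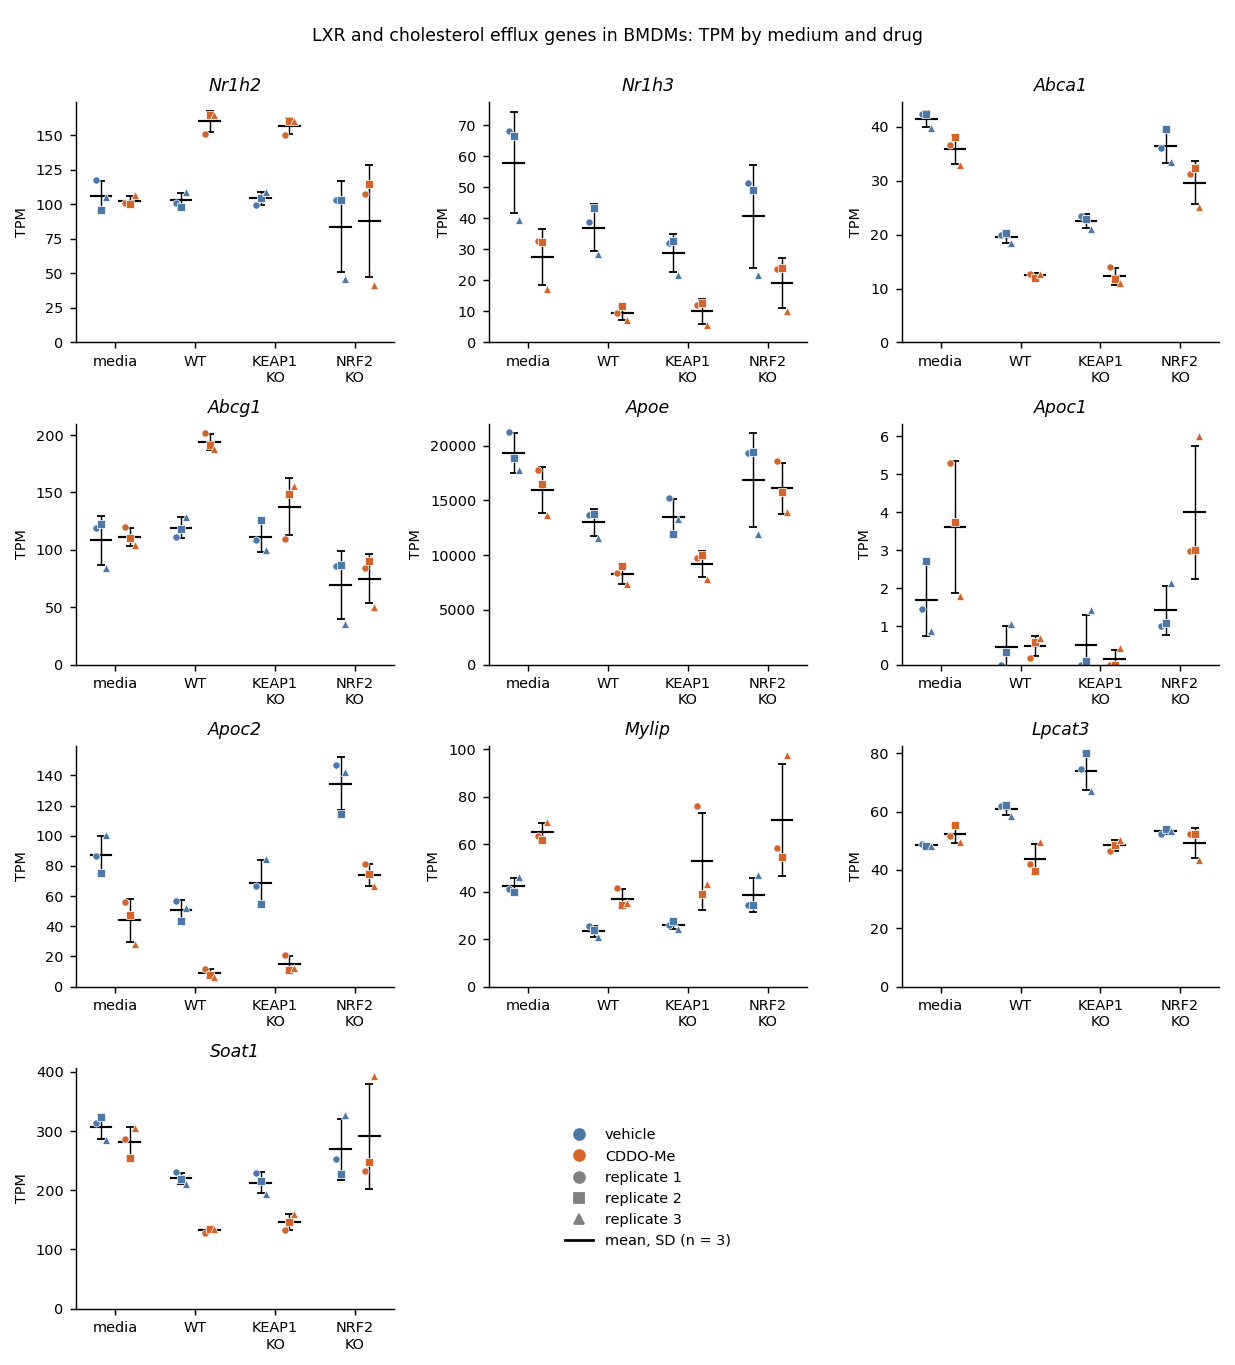
TPM of the 10 LXR and cholesterol efflux genes in 24 BMDM libraries, by medium (x axis) and drug (colour), with a marker shape per replicate number and bars for mean and SD (n = 3). Abca1 sits between 11.0 and 23.5 TPM in all 12 libraries with WT or KEAP1 KO CM and between 25.1 and 42.4 TPM in the other 12, while Nr1h2 and Abcg1 are highest with WT CM and CDDO-Me.

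Levels differed greatly between the members. Apoe was by far the most abundant, at 7336 to 21299 TPM, and made up 92.5% to 96.5% of the members' summed TPM in each library. Soat1, Abcg1, Nr1h2 and Apoc2 followed, and Apoc1 was near the floor, at 0 to 6.01 TPM. All 10 members passed the filter on low values (TPM above 1 in at least 3 libraries) among 13661 genes tested. Differences below are log2 differences of TMM-scaled TPM + 1 from limma (TMM being a scaling that aligns the bulk of genes between libraries), with SE, and a change was called at a Benjamini-Hochberg adjusted p under 0.05 over all genes tested.

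Of the receptors, LXRα mRNA was lowest where CDDO-Me met WT or KEAP1 KO CM, while LXRβ mRNA was highest there. With vehicle, Nr1h3 measured 68.1, 66.5 and 39.4 TPM in media, 38.8, 43.4 and 28.6 TPM in WT CM, 31.9, 32.6 and 21.8 TPM in KEAP1 KO CM and 51.4, 49.1 and 21.6 TPM in NRF2 KO CM. With CDDO-Me it measured 32.8, 32.5 and 17.2 TPM in media, 9.43, 11.6 and 7.40 TPM in WT CM, 12.1, 12.8 and 5.48 TPM in KEAP1 KO CM and 23.7, 24.1 and 9.98 TPM in NRF2 KO CM. Replicate 3 was the lowest library in all 8 groups, and neighbouring groups in the order of means overlapped throughout. CDDO-Me lowered Nr1h3 by -1.75 ± 0.34 in WT CM (adjusted p = 0.00043, limma) and by -1.32 ± 0.34 in KEAP1 KO CM (adjusted p = 0.00517), to 25.7% and 35.2% of the vehicle means. In media the difference was -1.06 ± 0.34 and missed the threshold (adjusted p = 0.0756); with the replicate block, which removes what same-numbered libraries share, it passed (adjusted p = 2.53e-05). For NRF2 KO CM it was -1.04 ± 0.34 (adjusted p = 0.0599, and 2.22e-05 with the replicate block). Between vehicle groups, Nr1h3 in WT CM differed from media by -0.55 ± 0.34 (adjusted p = 0.461, and 0.00799 with the block) and in KEAP1 KO CM by -0.98 ± 0.34 (adjusted p = 0.0892, and 0.0195 without the NRF2 KO CM replicate 3 libraries; with the block it passed too, at 4.45e-05, though there not every same-numbered pair deviated together).

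Nr1h2 lay in a narrow range across the vehicle groups outside NRF2 KO CM. It measured 117, 95.6 and 105 TPM in media/vehicle, 101, 98.2 and 109 TPM in WT CM/vehicle and 99.3, 104 and 109 TPM in KEAP1 KO CM/vehicle, and 101, 99.9 and 107 TPM in media/CDDO-Me. With CDDO-Me it rose to 151, 164 and 164 TPM in WT CM and to 149.9, 160.3 and 160.0 TPM in KEAP1 KO CM, above every other library. In NRF2 KO CM it measured 103, 103 and 45.8 TPM with vehicle and 108, 115 and 41.5 TPM with CDDO-Me, the low value in each case being replicate 3, the library with few genes detected. The CDDO-Me difference was 0.74 ± 0.25 in WT CM (adjusted p = 0.0287) and 0.76 ± 0.25 in KEAP1 KO CM (adjusted p = 0.0254). These calls were thin while the NRF2 KO CM replicate 3 libraries stayed in the fit: leaving out any 1 of 5 of the 6 libraries ended the first (adjusted p up to 0.0912), any 1 of 4 ended the second (up to 0.0704), and both were lost without scaling (0.114 and 0.138). With both NRF2 KO CM replicate 3 libraries left out, adjusted p was 1.6e-07 and 1.77e-07.

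Of the cholesterol exporters, Abca1 was lower in WT and KEAP1 KO CM than in media and fell further there with CDDO-Me. Abcg1 instead rose with CDDO-Me in WT CM. With vehicle, Abca1 measured 42.4, 42.3 and 39.8 TPM in media, 20.0, 20.3 and 18.4 TPM in WT CM, 23.5, 23.0 and 21.0 TPM in KEAP1 KO CM and 36.1, 39.5 and 33.5 TPM in NRF2 KO CM. Under CDDO-Me it stood at 36.6, 38.1 and 32.9 TPM in media, 12.7, 11.9 and 12.7 TPM in WT CM, 14.1, 11.8 and 11.0 TPM in KEAP1 KO CM and 31.3, 32.4 and 25.1 TPM in NRF2 KO CM. Its order of means ran from media/vehicle down through NRF2 KO CM/vehicle, media/CDDO-Me, NRF2 KO CM/CDDO-Me, KEAP1 KO CM/vehicle and WT CM/vehicle to the 2 CDDO-Me groups with WT and KEAP1 KO CM, and only NRF2 KO CM/vehicle with media/CDDO-Me and the last 2 groups with each other overlapped between neighbours. Against media/vehicle, Abca1 was lower by -0.99 ± 0.09 in WT CM (adjusted p = 1.96e-07) and by -0.86 ± 0.09 in KEAP1 KO CM (adjusted p = 1.28e-06), at 47.0% and 54.2% of the media mean. CDDO-Me lowered it by -0.51 ± 0.09 in WT CM (adjusted p = 0.000137) and by -0.67 ± 0.09 in KEAP1 KO CM (adjusted p = 5.49e-06), to means of 12.5 ± 0.465 TPM and 12.3 ± 1.60 TPM (SD, n = 3), 30% and 29.6% of naïve media/vehicle BMDMs. In media the difference was -0.20 ± 0.09 (adjusted p = 0.229). For NRF2 KO CM it was -0.29 ± 0.09 (adjusted p = 0.041), a call that ended without any 1 of its 6 libraries (0.0584 to 0.111) and without the replicate 3 libraries (0.206).

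Abcg1 did not follow Abca1. It measured 119, 122 and 83.9 TPM in media/vehicle, 111, 118 and 129 TPM in WT CM/vehicle, 109, 126 and 99.5 TPM in KEAP1 KO CM/vehicle and 86.0, 86.7 and 35.5 TPM in NRF2 KO CM/vehicle. With CDDO-Me it measured 119.8, 110.0 and 104 TPM in media, 201, 192 and 188 TPM in WT CM, 109, 148 and 155 TPM in KEAP1 KO CM and 84.0, 89.8 and 50.1 TPM in NRF2 KO CM. The WT CM/CDDO-Me libraries stood above all others, and the remaining neighbours in the order of means overlapped. The CDDO-Me difference in WT CM was 0.81 ± 0.22 (adjusted p = 0.00842, and 0.0546 without scaling), against 0.46 ± 0.22 in KEAP1 KO CM (adjusted p = 0.136, and 0.00485 without the NRF2 KO CM replicate 3 libraries). Within each library, the ratio of Abcg1 to Abca1 TPM was 2.11 to 2.89 in media/vehicle, 5.56 to 7.0 in WT CM/vehicle, 4.62 to 5.50 in KEAP1 KO CM/vehicle and 1.06 to 2.38 in NRF2 KO CM/vehicle. With CDDO-Me it was 2.89 to 3.27 in media, 14.8 to 16.1 in WT CM, 7.76 to 14.2 in KEAP1 KO CM and 2.00 to 2.77 in NRF2 KO CM. Nr1h2 over Nr1h3 was 1.44 to 2.66 in media/vehicle and 2.26 to 3.81 in WT CM/vehicle. It was 3.11 to 5.01 in KEAP1 KO CM/vehicle and 2.00 to 2.12 in NRF2 KO CM/vehicle. The same ratio with CDDO-Me was 3.07 to 6.20 in media, 14.1 to 22.2 in WT CM, 12.4 to 29.2 in KEAP1 KO CM and 4.16 to 4.77 in NRF2 KO CM. For this ratio, vehicle and CDDO-Me ranges did not overlap in any medium.

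**Figure D2:**
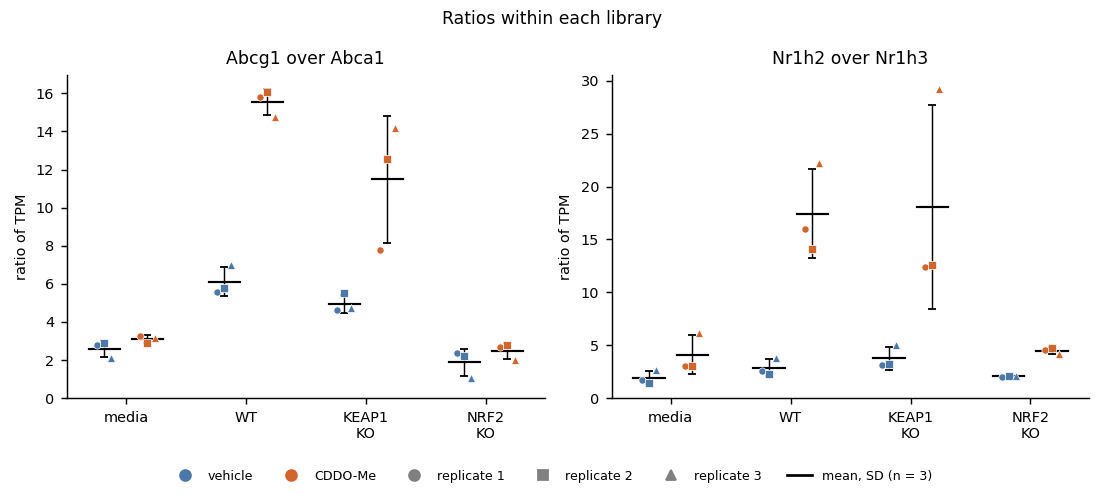
Ratio of Abcg1 to Abca1 TPM and of Nr1h2 to Nr1h3 TPM within each library, by medium and drug, with mean and SD (n = 3). The ratios are highest with CDDO-Me in WT CM (14.8 to 16.1 and 14.1 to 22.2) and in KEAP1 KO CM (7.76 to 14.2 and 12.4 to 29.2).

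Apoe and Apoc2 fell with CDDO-Me in WT CM, Apoc2 the more, while Apoc1 was not called there (0.10 ± 0.39, adjusted p = 0.908). Apoe measured 21299, 18908 and 17740.1 TPM in media/vehicle, 13674, 13776 and 11556 TPM in WT CM/vehicle, 15217, 11903 and 13262 TPM in KEAP1 KO CM/vehicle and 19316, 19420.1 and 11907 TPM in NRF2 KO CM/vehicle. Under CDDO-Me it stood at 17794, 16467 and 13679 TPM in media, 8403, 8962 and 7336 TPM in WT CM, 9755, 9994 and 7822 TPM in KEAP1 KO CM and 18561, 15754 and 13971 TPM in NRF2 KO CM. The 6 libraries with CDDO-Me and WT or KEAP1 KO CM lay below all 18 others. CDDO-Me lowered Apoe by -0.55 ± 0.16 in WT CM (adjusted p = 0.015), a call that ended without WT CM/vehicle replicate 1 or 2 or WT CM/CDDO-Me replicate 3 (0.0532 to 0.0751) or with no filter on low values (0.4). In KEAP1 KO CM the difference was -0.38 ± 0.16 (adjusted p = 0.0946, and 0.0275 without the NRF2 KO CM replicate 3 libraries). Between vehicle groups, WT CM differed from media by -0.51 ± 0.16 (adjusted p = 0.0706, and 0.01 with the replicate block) and KEAP1 KO CM by -0.53 ± 0.16 (adjusted p = 0.0505, 0.00668 with the block and 0.00497 without the NRF2 KO CM replicate 3 libraries).

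Apoc2 codes for a protein that activates lipoprotein lipase. With vehicle it measured 86.5, 75.3 and 100.2 TPM in media, 56.6, 43.5 and 52.0 TPM in WT CM, 67.0, 54.6 and 84.5 TPM in KEAP1 KO CM and 147, 114 and 142 TPM in NRF2 KO CM. With CDDO-Me it measured 56.0, 47.4 and 28.3 TPM in media, 12.0, 7.89 and 6.19 TPM in WT CM, 21.2, 10.9 and 12.2 TPM in KEAP1 KO CM and 81.0, 74.6 and 66.7 TPM in NRF2 KO CM. Vehicle and CDDO-Me libraries did not overlap in any of the 4 media. CDDO-Me lowered Apoc2 by -2.35 ± 0.27 in WT CM (adjusted p = 9.85e-07) and by -2.01 ± 0.27 in KEAP1 KO CM (adjusted p = 6.8e-06), to 17.1% and 21.5% of the vehicle means. In media it fell by 1.02 ± 0.27 on the log2 scale (adjusted p = 0.0269), a call that ended without media/vehicle replicate 1 or 3 or media/CDDO-Me replicate 2 or 3 (0.0605 to 0.159). For NRF2 KO CM the difference was -0.84 ± 0.27 (adjusted p = 0.0537, and 0.0157 with the replicate block). Apoc2 shares 646 exonic bases on the same strand with Apoc2l, which was listed at 0 to 3.5 TPM, and how reads were split between them is not given in the sources used here.

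Apoc1, which codes for an apolipoprotein that restrains lipoprotein uptake, was close to the floor. It measured 1.45, 2.73 and 0.881 TPM in media/vehicle, 1.01, 1.10 and 2.15 TPM in NRF2 KO CM/vehicle, 5.29, 3.74 and 1.81 TPM in media/CDDO-Me and 2.98, 3.01 and 6.01 TPM in NRF2 KO CM/CDDO-Me. In WT CM it was listed at 0, 0.333 and 1.07 TPM with vehicle and 0.177, 0.597 and 0.686 TPM with CDDO-Me, and in KEAP1 KO CM at 0, 0.0892 and 1.43 TPM with vehicle and 0, 0 and 0.426 TPM with CDDO-Me. Under CDDO-Me it was lower than in media by -1.49 ± 0.39 in WT CM (adjusted p = 0.00683, and 0.0571 with a pseudocount of 0.1) and by -1.90 ± 0.39 in KEAP1 KO CM (adjusted p = 0.00108).

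Of the remaining members, Mylip, which codes for the ubiquitin ligase IDOL, was higher with CDDO-Me in all 4 media. The rise was called in the 3 conditioned media. With vehicle it measured 41.4, 40.0 and 46.0 TPM in media, 25.3, 23.8 and 20.8 TPM in WT CM, 26.0, 27.5 and 24.3 TPM in KEAP1 KO CM and 34.4, 34.4 and 46.9 TPM in NRF2 KO CM. Under CDDO-Me it stood at 63.6, 62.0 and 69.6 TPM in media, 41.5, 34.5 and 35.4 TPM in WT CM, 76.2, 39.0 and 43.2 TPM in KEAP1 KO CM and 58.5, 54.7 and 97.6 TPM in NRF2 KO CM. Every CDDO-Me library exceeded every vehicle library of its medium, although KEAP1 KO CM/CDDO-Me replicate 1 and NRF2 KO CM/CDDO-Me replicate 3 lay well above their groups. The difference was 0.76 ± 0.25 in WT CM (adjusted p = 0.0295), 1.10 ± 0.25 in KEAP1 KO CM (adjusted p = 0.00205), 0.82 ± 0.25 in NRF2 KO CM (adjusted p = 0.045) and 0.61 ± 0.25 in media (adjusted p = 0.205, and 0.0222 without the NRF2 KO CM replicate 3 libraries). The WT CM call ended without any 1 of 4 of its 6 libraries (0.0604 to 0.11; WT CM/vehicle replicates 2 and 3, WT CM/CDDO-Me replicates 1 and 3). The NRF2 KO CM call ended without NRF2 KO CM/vehicle replicate 1 or 2 or NRF2 KO CM/CDDO-Me replicate 3 (0.116 to 0.196). Between vehicle groups, Mylip in WT CM differed from media by -0.78 ± 0.25 (adjusted p = 0.0732, and 0.0357 with the replicate block).

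Lpcat3, which codes for the enzyme that loads polyunsaturated chains onto membrane phospholipids, was higher in WT and KEAP1 KO CM than in media with vehicle and fell with CDDO-Me in both. With vehicle it measured 48.8, 48.1 and 48.3 TPM in media, 61.8, 62.2 and 58.5 TPM in WT CM, 74.6, 80.0 and 67.0 TPM in KEAP1 KO CM and 52.4, 54.1 and 53.4 TPM in NRF2 KO CM. With CDDO-Me it measured 51.7, 55.4 and 49.7 TPM in media, 42.1, 39.6 and 49.5 TPM in WT CM, 46.5, 48.5 and 50.3 TPM in KEAP1 KO CM and 52.2, 52.4 and 43.2 TPM in NRF2 KO CM. The KEAP1 KO CM/vehicle libraries lay above all others and the WT CM/vehicle libraries above the rest. Against media/vehicle it rose by 0.39 ± 0.09 in WT CM (adjusted p = 0.00842) and by 0.59 ± 0.09 in KEAP1 KO CM (adjusted p = 0.000161). CDDO-Me lowered it by -0.36 ± 0.09 in WT CM (adjusted p = 0.00346) and by -0.43 ± 0.09 in KEAP1 KO CM (adjusted p = 0.000828). Lpcat3 shares 4277 exonic bases with Emg1 on the opposite strand, and no source used here states a strand setting, so reads of the pair cannot be told apart with certainty. Emg1 had medians of 65.5 TPM in media/vehicle, 76.4 TPM in WT CM/vehicle, 82.3 TPM in KEAP1 KO CM/vehicle, 56.1 TPM in WT CM/CDDO-Me and 56.8 TPM in KEAP1 KO CM/CDDO-Me, and its part in the Lpcat3 values was not tested.

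Soat1, which codes for the enzyme that esterifies cholesterol for storage, was lowest with CDDO-Me in WT and KEAP1 KO CM. With vehicle it measured 314, 324 and 284 TPM in media, 230.3, 219.8 and 211 TPM in WT CM, 229, 216 and 194 TPM in KEAP1 KO CM and 254, 228 and 326 TPM in NRF2 KO CM. Under CDDO-Me it stood at 286, 254 and 305 TPM in media, 129, 135 and 135 TPM in WT CM, 132, 146 and 159.6 TPM in KEAP1 KO CM and 233, 248 and 393 TPM in NRF2 KO CM. The 6 low libraries overlapped no other group. The difference was -0.62 ± 0.20 in WT CM (adjusted p = 0.0272) and -0.37 ± 0.20 in KEAP1 KO CM (adjusted p = 0.2). The WT CM call ended without any 1 of its 6 libraries (0.057 to 0.0791), while without the NRF2 KO CM replicate 3 libraries adjusted p was 5.06e-05 in WT CM and 0.00448 in KEAP1 KO CM.

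Counted by comparison, CDDO-Me moved most of the members in WT CM. There 9 of 10 were called, Nr1h2, Abcg1 and Mylip higher and Nr1h3, Abca1, Apoe, Apoc2, Lpcat3 and Soat1 lower, where 27.8% of all genes tested were called (13.9% higher and 13.9% lower). In KEAP1 KO CM 6 were called, Nr1h2 and Mylip higher and Nr1h3, Abca1, Apoc2 and Lpcat3 lower, against 28.8% of all genes (14.5% higher and 14.2% lower). In NRF2 KO CM 2 were called, Mylip higher and Abca1 lower, against 9.77% (4.49% higher and 5.28% lower), and 4 with the replicate block. In media only Apoc2 was called, against 6.01%, and 2 with the replicate block. The median difference of the members was -0.43 in WT CM, -0.37 in KEAP1 KO CM, -0.00 in NRF2 KO CM and -0.08 in media, beside -0.03, -0.02, -0.01 and -0.01 for all genes. The WT CM count was 5 without WT CM/vehicle replicate 2, without WT CM/CDDO-Me replicate 3, or with no filter on low values. Without the NRF2 KO CM replicate 3 libraries 9 members were called in WT CM, 9 in KEAP1 KO CM, 3 in media and 1 in NRF2 KO CM. Without scaling, the median of all genes shifted to -0.12 in WT CM and -0.17 in KEAP1 KO CM and the share of called genes that were higher was 39.13% in place of 49.89% and 34.63% in place of 50.52%.

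Values of other gene groups moved beside these results. With CDDO-Me in WT and KEAP1 KO CM, the summed TPM of 8 interferon response genes was 5801 to 7498, against 68.0 to 104 TPM in the other 6 groups. The summed TPM of 7 NRF2 target genes was 569 to 784 over all vehicle libraries and 1825 to 5149 over all CDDO-Me libraries. The fibroblast marker sums given above reached their lowest values in the same 2 groups. Smooth muscle markers (3 of 4 above 1 TPM in at least 3 libraries) summed to 551 to 703 TPM in media/vehicle, 195 to 247 TPM in WT CM/vehicle, 312 to 443 TPM in KEAP1 KO CM/vehicle and 427 to 981 TPM in NRF2 KO CM/vehicle. With CDDO-Me that sum was 845 to 1752 TPM in media, 103 to 213 TPM in WT CM, 119 to 262 TPM in KEAP1 KO CM and 420 to 1115 TPM in NRF2 KO CM. The macrophage marker sum was 14880 to 20460 TPM in the 4 groups with WT or KEAP1 KO CM and 21590 to 38340 TPM in the other 4. Most of that sum was Lyz2, at 12084 to 34332 TPM, and the markers did not move together. In media/vehicle, Adgre1 measured 667, 674 and 598 TPM and Cd14 250, 215 and 238 TPM. In WT CM/vehicle, Adgre1 was higher (929, 865 and 757 TPM) and Cd14 lower (102, 99.1 and 100 TPM). Nr1h3 and the fibroblast sum were both lowest in replicate 3 of every group. The part of any of these in the members' values was not tested.

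**Figure D3:**
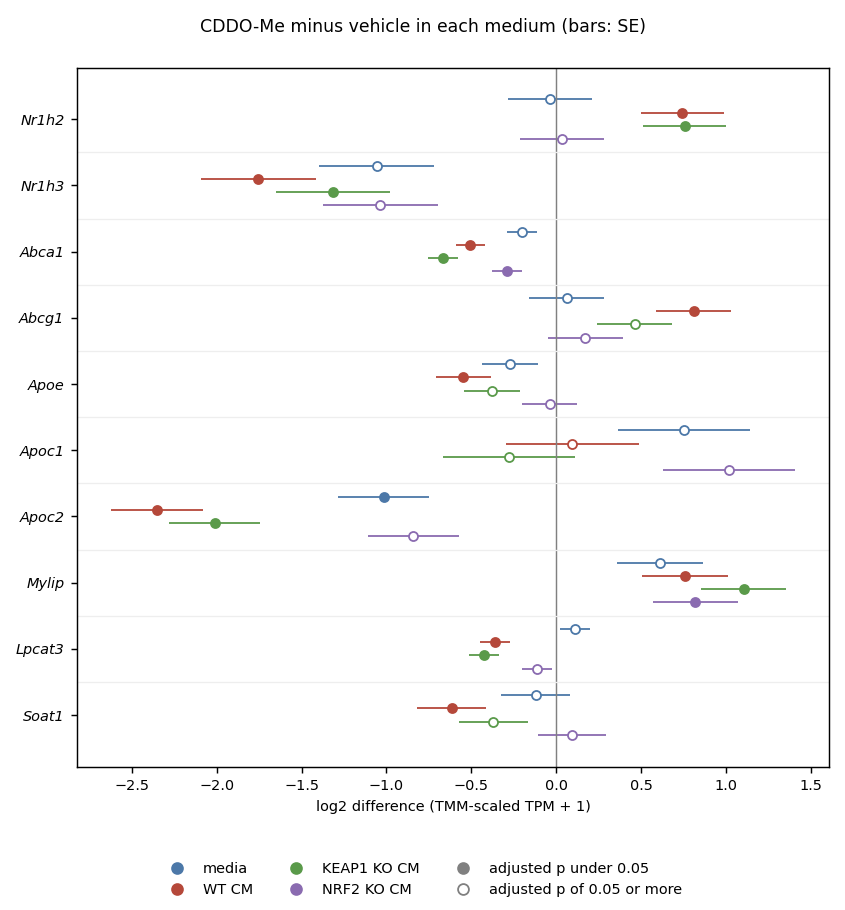
Log2 difference between CDDO-Me and vehicle for each member in each medium, on the scale of TMM-scaled TPM + 1, with SE bars and filled points where the limma adjusted p was under 0.05. In WT CM 9 of 10 members are filled, from -2.35 for Apoc2 to 0.81 for Abcg1, and in media only Apoc2 is.

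The conditioned media with vehicle were compared with media, which had held no cells. What the LL2 cells released into the medium and what they took from it cannot be told apart here. In WT CM 2 members were called, Lpcat3 higher and Abca1 lower, against 7.34% of all genes (4.33% higher and 3.02% lower). The count was 6 with the replicate block, which added Nr1h3, Apoe, Apoc2 and Mylip, all lower, and it was 5 without the NRF2 KO CM replicate 3 libraries. In KEAP1 KO CM the same 2 members were called in the same directions, against 7.96% of all genes (4.65% higher and 3.31% lower), and the comparison shares its media libraries with that of WT CM; 6 were called without the NRF2 KO CM replicate 3 libraries. Without scaling, the share of called genes that were higher in WT CM was 48.17% in place of 58.92%. The members' medians were -0.53 and -0.54, beside 0.01 and 0.00 for all genes. NRF2 KO CM gave 0 called members, against 0.00732% of all genes, with 1659 genes at an unadjusted p under 0.05. There Abca1 differed from media by -0.16 (95% interval -0.34 to 0.02), Abcg1 by -0.69 (-1.16 to -0.23) and Apoc2 by 0.65 (0.09 to 1.21). The Abcg1 value was -0.35 without the replicate 3 libraries.

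Under CDDO-Me, more members were called against media than with vehicle in WT and KEAP1 KO CM, as were more of all genes. Lpcat3 went the other way, called with vehicle but not under CDDO-Me. Its differences from media under CDDO-Me were -0.09 ± 0.09 in WT CM and 0.05 ± 0.09 in KEAP1 KO CM. In WT CM 8 members were called, Nr1h2 and Abcg1 higher and Nr1h3, Abca1, Apoe, Apoc1, Apoc2 and Soat1 lower, against 26.8% of all genes (13.7% higher and 13.1% lower). In KEAP1 KO CM 7 were called, Nr1h2 higher and Nr1h3, Abca1, Apoe, Apoc1, Apoc2 and Soat1 lower, against 22.5% (12.3% higher and 10.2% lower). Among them, Abca1 differed by -1.29 ± 0.09 in WT CM (adjusted p = 6.92e-10) and by -1.33 ± 0.09 in KEAP1 KO CM (adjusted p = 4.94e-10). The Nr1h2 call in WT CM ended without any 1 of 3 libraries (0.0579 to 0.0664; media/CDDO-Me replicates 1 and 2, WT CM/CDDO-Me replicate 3) and in KEAP1 KO CM without any 1 of 5 (0.0576 to 0.0953). The Nr1h3 call in KEAP1 KO CM (-1.23 ± 0.34, adjusted p = 0.0111) ended without media/CDDO-Me replicate 1 or 2 or KEAP1 KO CM/CDDO-Me replicate 3 (0.0527 to 0.088). Mylip in WT CM (-0.63 ± 0.25, adjusted p = 0.075) passed with the replicate block (0.046). Without scaling, the median of all genes was -0.16 in WT CM and -0.15 in KEAP1 KO CM, the higher share of called genes was 33.58% in place of 51.15% and 37.45% in place of 54.53%, and both Nr1h2 calls were lost (0.109 and 0.137). NRF2 KO CM gave 0 called members, against 0.154% of all genes, with 1006 genes at an unadjusted p under 0.05.

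**Figure D4:**
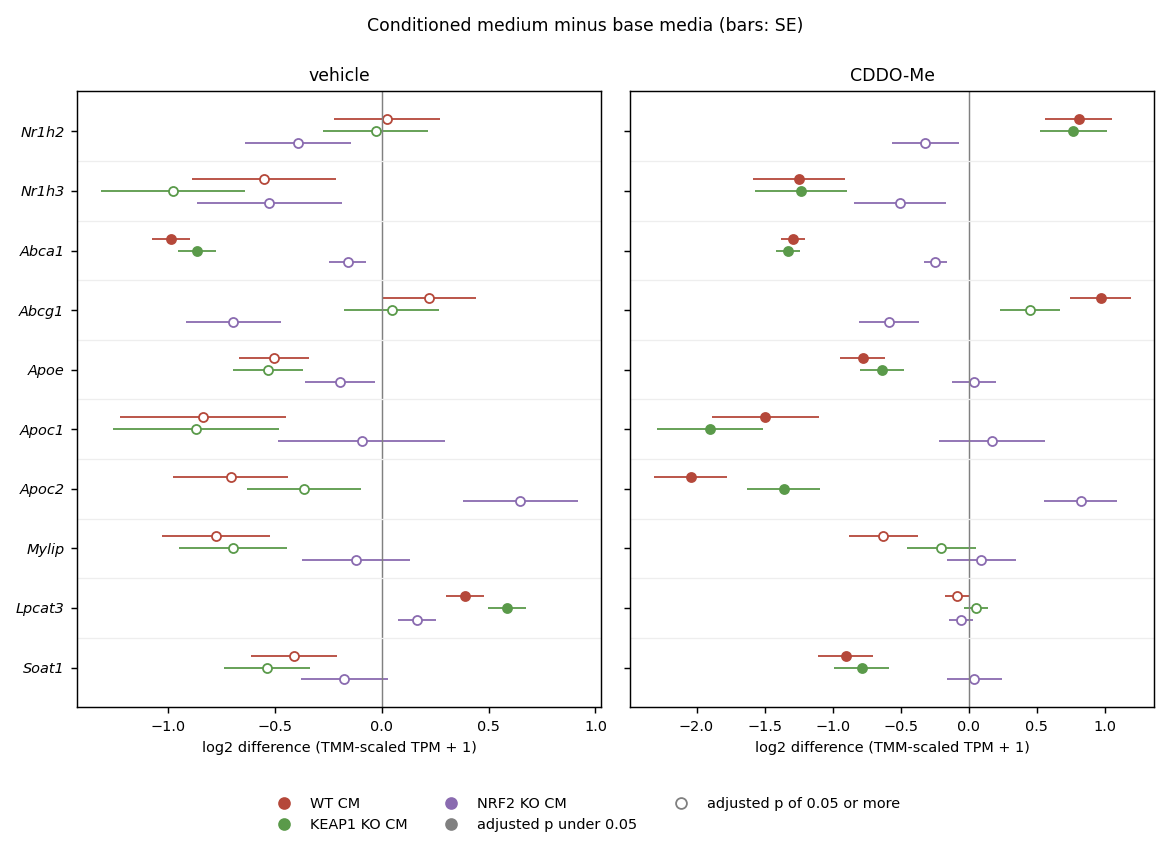
Log2 difference between each conditioned medium and media, with vehicle (left) and with CDDO-Me (right), for each member, with SE bars and filled points where the limma adjusted p was under 0.05. Abca1 and Lpcat3 are filled for WT and KEAP1 KO CM with vehicle, 8 and 7 members are filled with CDDO-Me, and no NRF2 KO CM point is filled.

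WT CM was compared directly with KEAP1 KO CM and with NRF2 KO CM, while KEAP1 KO and NRF2 KO CM were not compared with each other. Between KEAP1 KO and WT CM 0 members were called with vehicle, against 0% of all genes (341 genes at an unadjusted p under 0.05), and 0 with CDDO-Me, against 0.0512% (570 genes). Beside those shares, the counts of 0 do not set the members apart, and the intervals leave room for differences. With vehicle, KEAP1 KO minus WT was 0.12 for Abca1 (95% interval -0.06 to 0.30) and -0.43 for Nr1h3 (-1.13 to 0.28). For Lpcat3 with vehicle it was 0.20 (0.01 to 0.38). With CDDO-Me it was -0.52 for Abcg1 (-0.98 to -0.06) and 0.68 for Apoc2 (0.12 to 1.25). Between WT and NRF2 KO CM with vehicle 3 members were called, Abcg1 higher in WT CM (0.91 ± 0.22, adjusted p = 0.0111) and Abca1 (-0.83 ± 0.09, adjusted p = 2.53e-06) and Apoc2 (-1.35 ± 0.27, adjusted p = 0.00246) lower, against 10.7% of all genes (6.56% higher and 4.11% lower). The Abcg1 call ended without WT CM/vehicle replicate 3 (0.0574), and 5 members were called without the NRF2 KO CM replicate 3 libraries. With CDDO-Me 8 were called, Nr1h2 and Abcg1 higher in WT CM and Abca1, Apoe, Apoc1, Apoc2, Mylip and Soat1 lower, against 25.9% (13.8% higher and 12.1% lower). Abcg1 differed by 1.55 ± 0.22 (adjusted p = 2.23e-05) and Apoc2 by -2.86 ± 0.27 (adjusted p = 1.02e-07). The Mylip call (-0.72 ± 0.25, adjusted p = 0.0422) ended without NRF2 KO CM/CDDO-Me replicate 3 (0.25) or any 1 of the WT CM/CDDO-Me libraries, and with both replicate 3 libraries left out adjusted p was 0.133. Without scaling, the higher share of called genes was 44.23% in place of 61.50% with vehicle and 33.95% in place of 53.42% with CDDO-Me.

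Whether CDDO-Me acted differently between media was tested as an interaction. Against media, the CDDO-Me effect in WT CM was lower for Apoc2 (-1.34 ± 0.38, adjusted p = 0.02) and Lpcat3 (-0.48 ± 0.12, adjusted p = 0.0119), 2 of 10 members, against 15% of all genes. The Apoc2 call ended without any 1 of 4 of the 12 libraries (0.0514 to 0.0657; media/vehicle replicate 2, WT CM/vehicle replicate 1, media/CDDO-Me replicate 1 and WT CM/CDDO-Me replicate 3). The effect in KEAP1 KO CM was lower for Abca1 (-0.46 ± 0.12, adjusted p = 0.0134) and Lpcat3 (-0.54 ± 0.12, adjusted p = 0.0048), 2 of 10, against 14.7%. The Abca1 call ended without KEAP1 KO CM/vehicle replicate 1 (0.0611) or KEAP1 KO CM/CDDO-Me replicate 2 (0.0565). Compared with NRF2 KO CM, the effect in WT CM was lower for Apoc2 only (-1.51 ± 0.38, adjusted p = 0.00968), against 13.3% of all genes. Without the NRF2 KO CM replicate 3 libraries, 5 members were called in the first of these comparisons and 5 in the last. In both they were Nr1h2, Abcg1, Apoc2, Lpcat3 and Soat1. The Nr1h2 effect in WT CM then differed from that in media by 0.81 (adjusted p = 1.63e-05, limma), against 0.78 ± 0.35 with all libraries (0.164). In KEAP1 KO CM it then differed from media by 0.81 (1.87e-05), and in WT CM from NRF2 KO CM by 0.64 (0.000707). Without scaling, the higher share of called genes in the KEAP1 KO CM comparison was 40.45% in place of 56.85%. The Nr1h3 effect in WT CM differed from that in media by -0.70 ± 0.48 (adjusted p = 0.431, and 0.00994 with the replicate block) and the Abca1 effect by -0.30 ± 0.12 (adjusted p = 0.12). Neither the NRF2 KO CM effect against media nor the KEAP1 KO CM effect against WT CM gave a called member, each against 0% of all genes, with 374 and 225 genes at an unadjusted p under 0.05.

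Of 7 tested partners and cofactors of the receptors, 3 were called with CDDO-Me in WT CM, where 27.8% of all genes were. CDDO-Me raised Nrip1 (0.85 ± 0.20, adjusted p = 0.0029) and Ncoa1 (0.93 ± 0.27, adjusted p = 0.013) and lowered Rxra, which codes for a retinoid X receptor (-0.28 ± 0.10, adjusted p = 0.043). The median of the 7 was 0.11. The conditioned media with vehicle called 0 of 7, against 7.34% of all genes in WT CM, 7.96% in KEAP1 KO CM and 0.00732% in NRF2 KO CM. Of 5 tested enzymes that make or remove sterol ligands, CDDO-Me in WT CM raised Ch25h, which makes 25-hydroxycholesterol (2.24 ± 0.52, adjusted p = 0.0025), and Cyp27a1, which makes 27-hydroxycholesterol (1.05 ± 0.23, adjusted p = 0.0016). There 13.9% of all genes were higher, and not every enzyme of this list is reported here. Cyp27a1 measured 72.3, 78.1 and 98.1 TPM in media/vehicle, 53.1, 38.3 and 62.9 TPM in WT CM/vehicle and 93.9, 89.0 and 111 TPM in WT CM/CDDO-Me. Ch25h measured 5.81 ± 2.14 TPM in media/vehicle, 9.27 ± 3.74 TPM in WT CM/vehicle and 43.5 ± 14.5 TPM in WT CM/CDDO-Me (SD, n = 3).

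Of 13 other LXR targets tested, CDDO-Me in WT CM raised 4 and lowered 6, with a median of -0.67, against 13.9% of all genes higher and 13.9% lower. The lowest p-values were those of the fatty acid synthesis genes Fasn (-1.88 ± 0.25, adjusted p = 5.2e-06), Scd1 (-1.83 ± 0.26, adjusted p = 1.5e-05) and Scd2 (-1.27 ± 0.19, adjusted p = 2.4e-05), which fell, and of Mertk, an efferocytosis receptor (0.91 ± 0.14, adjusted p = 4.5e-05), which rose. In KEAP1 KO CM 3 rose and 6 fell (14.5% and 14.2% of all genes), and in media only Tgm2, a transglutaminase, changed (-2.10 ± 0.41, adjusted p = 0.0028), against 6.01% of all genes. With vehicle, WT CM against media gave 2 higher and 2 lower, Scd2 (1.34 ± 0.19, adjusted p = 8e-05) and Arl4c (1.04 ± 0.20, adjusted p = 0.0018) above and Cd5l, a secreted macrophage scavenger protein (-2.01 ± 0.36, adjusted p = 0.0011), and Mertk (-0.55 ± 0.14, adjusted p = 0.02) below, while KEAP1 KO CM gave 7 higher and 3 lower. The shares over all genes were 4.33% higher and 3.02% lower in WT CM and 4.65% and 3.31% in KEAP1 KO CM.

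Of the 8 SREBP2 targets, 7 were higher in WT CM than in media with vehicle and 7 in KEAP1 KO CM, with medians of 0.70 and 0.94, against 4.33% and 4.65% of all genes higher. In NRF2 KO CM 0 of 8 were called, where 0.00732% of all genes were, so that count does not set these genes apart. In WT CM the lowest p-values were those of Stard4 (0.71 ± 0.12, adjusted p = 0.00043), Idi1 (0.99 ± 0.16, adjusted p = 0.00047), Insig1 (0.70 ± 0.13, adjusted p = 0.0013) and Sqle (0.73 ± 0.14, adjusted p = 0.0016). CDDO-Me lowered 8 of 8 in WT CM and in KEAP1 KO CM, with medians of -2.01 and -1.96, against 13.9% and 14.2% of all genes lower. It lowered 6 of 8 in media, where 6.01% of all genes were called, and 6 of 8 in NRF2 KO CM, where 5.28% were lower, with medians of -0.64 and -0.77. Idi1 (-3.30 ± 0.16, adjusted p = 5.5e-12) and Sqle (-2.74 ± 0.14, adjusted p = 7.1e-12), both enzymes of the sterol pathway, fell most clearly in WT CM, followed by Insig1 (-2.29 ± 0.13, adjusted p = 3.3e-11) and Stard4 (-1.77 ± 0.12, adjusted p = 3.7e-10). The summed TPM of the 8 genes was 342 to 373 in media/vehicle, 504 to 556 in WT CM/vehicle, 638 to 663 in KEAP1 KO CM/vehicle and 375 to 439 in NRF2 KO CM/vehicle. That sum with CDDO-Me was 226 to 244 in media, 115 to 147 in WT CM, 158 to 191 in KEAP1 KO CM and 210 to 281 in NRF2 KO CM.

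Of 13 tested uptake and storage genes, CDDO-Me in WT CM raised 2 and lowered 4, with a median of 0.20, against 13.9% of all genes higher and 13.9% lower. Plin2, which coats lipid droplets, fell (-1.75 ± 0.13, adjusted p = 2.2e-09), as did Nceh1, a cholesteryl ester hydrolase (-0.86 ± 0.20, adjusted p = 0.0025), while the transporter Abca7 rose (0.90 ± 0.22, adjusted p = 0.0037). In media, where 6.01% of all genes were called, CDDO-Me raised 3 of 13 and lowered 2, with Plin2 (-0.71 ± 0.13, adjusted p = 0.0014) lower and the lysosomal lipase Lipa (0.48 ± 0.12, adjusted p = 0.02) and Abca7 (0.79 ± 0.22, adjusted p = 0.035) higher. With vehicle, Lipa was lower in WT CM than in media (-0.58 ± 0.12, adjusted p = 0.004), as was Lrp1 (-0.92 ± 0.27, adjusted p = 0.043), and Soat2, a second esterifying enzyme (0.85 ± 0.21, adjusted p = 0.017), was higher. Soat2 was near the floor, at 0.496, 0.543 and 0.620 TPM in media/vehicle and 1.95, 2.50 and 1.02 TPM in WT CM/vehicle.

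**Figure D5:**
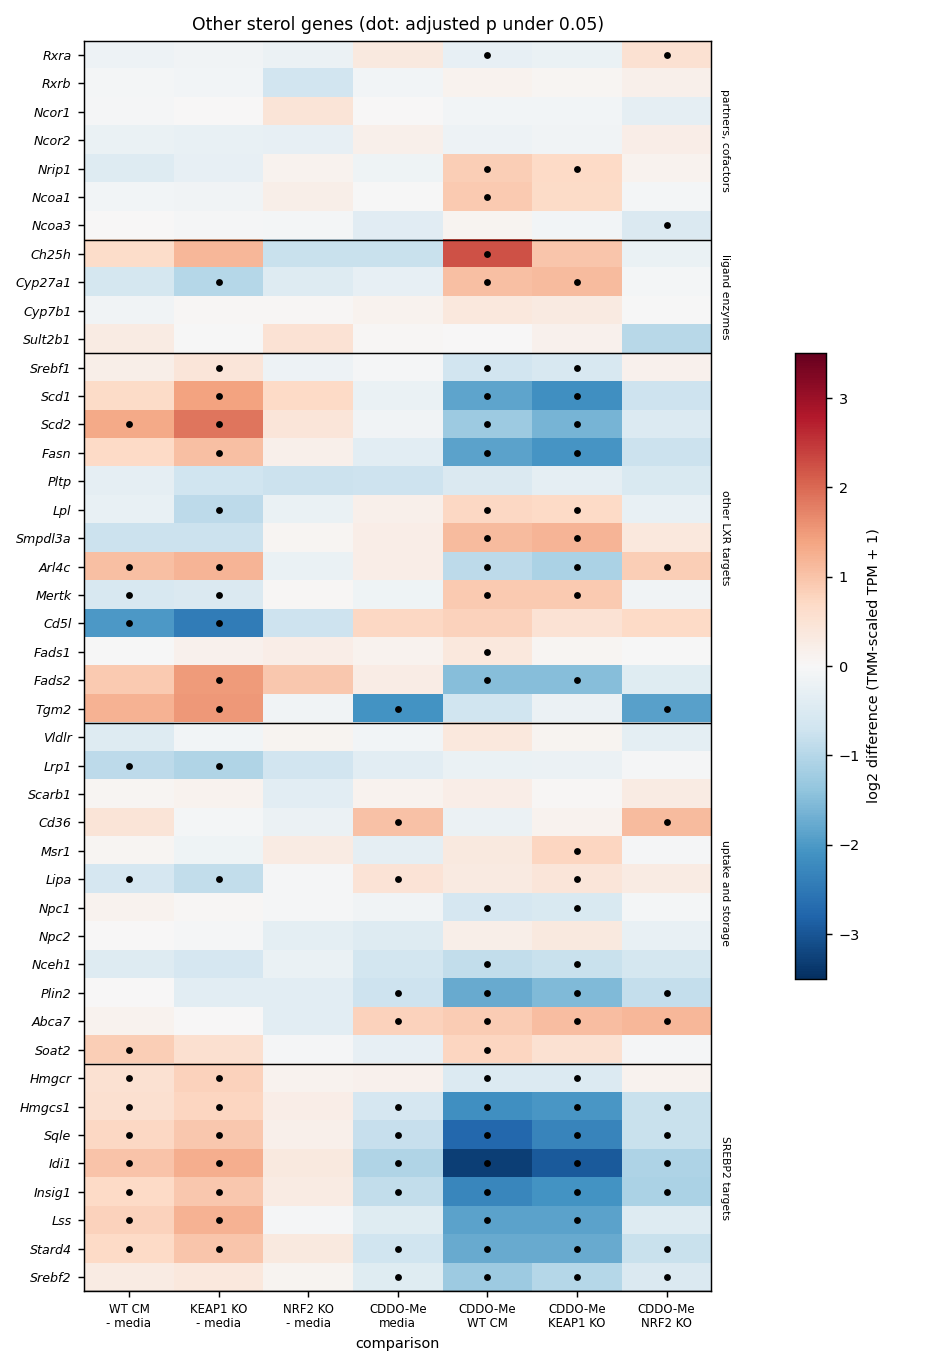
Log2 differences of the genes reported here among partners, ligand enzymes, other LXR targets, uptake and storage genes and SREBP2 targets in 7 comparisons, coloured from blue (lower) to red (higher), with a dot where the limma adjusted p was under 0.05. The SREBP2 targets are red with dots in the WT and KEAP1 KO CM columns and blue with dots under CDDO-Me, deepest in WT CM (median -2.01) and KEAP1 KO CM (-1.96).

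The genes most alike to the members in pattern over the 24 libraries were ranked by Pearson r of log2 scaled TPM, a description in which all points share group structure. For Abca1 they were Agap1 (0.96), Dach1 (0.96), Itga6 (0.95), Mamdc2 (0.95) and Plxna2 (0.95). For Apoe they were Gadd45a (0.95), Mgat5 (0.94), Tmem217rt (0.93), Rdh10 (0.93) and Ptger4 (0.93). For Nr1h3 they were Dnmt3a (0.95), Armc2 (0.95), Or5v1 (0.94), Gprc5b (0.94) and Ctsd (0.94). Among the members, Abca1 and Apoe had the highest r (0.90), followed by Nr1h2 and Abcg1 (0.89), and Nr1h2 and Soat1 the lowest (-0.87).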

How the data were processed

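BMDM polyA RNA was sequenced in 24 libraries. The authors pseudoaligned the reads to GRCm39 with kallisto and deposited TPM per gene symbol, in a table whose columns share the same sum; 0.0199% to 0.0635% of each column had no gene name and was left out. The method used for gene-level summing and the strand setting are not given in the sources used here.

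Groups followed the sample labels. TPM was scaled by an unweighted TMM (trims of 30% and 5%), taken as log2(TPM + 1), and tested in 1 limma v3.58.1 fit of 8 group means (eBayes with trend, R v4.3.3, 16 residual degrees of freedom, two-sided, 19 comparisons). Members and gene lists were chosen with earlier results of these data known. All 10 members are named, with up to 4 genes with the smallest p per list and comparison, and the 5 genes most alike to Abca1, Apoe and Nr1h3. The fit was tested on simulated data. Upstream sequences came from the GRCm39 genome and GENCODE gene starts.

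Same-numbered libraries deviated together in 71 of 84 pairs (r over 0.1), and in every pair of the comparisons of CDDO-Me in media and NRF2 KO CM, of WT CM with media (vehicle), of all 3 conditioned media with media (CDDO-Me) and of KEAP1 KO with WT CM; for these, the value with the replicate block is given beside a result whose call it changed. No label says what a number marks. Alternatives covered scaling, pseudocount, filter, variance model, array weights, replicate block, fewer groups and each library left out. Values of some listed genes and 1 upstream sequence are not reported here.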

Additional observations from a re-analysis of the deposited data

Results flagged for a closer look

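With all 24 libraries in the fit, the effect of CDDO-Me differed between media for 3 members by the test of the difference itself. The test called 2 of 10 members for WT CM against media, where 15% of all genes were called. It called 2 for KEAP1 KO CM against media (14.7% of all genes) and 1 for WT against NRF2 KO CM (13.3%). These counts do not set the members apart. Without the NRF2 KO CM replicate 3 libraries, Nr1h2, Abcg1 and Soat1 were also called in WT CM against media. Apoc2 fell more in WT CM than in media, by -1.34 on the log2 scale, and more than in NRF2 KO CM, by -1.51. Lpcat3 differed from its CDDO-Me effect in media by -0.48 in WT CM and by -0.54 in KEAP1 KO CM, falling in the conditioned media while its difference in media was 0.11 ± 0.09 (adjusted p = 0.686, limma). Abca1 fell more in KEAP1 KO CM than in media, by -0.46. The exonic bases that Lpcat3 shares with Emg1 bear on both of its values, and their part was not tested.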

How the results depend on the processing

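Of 190 pairs of member and comparison, 53 were called, 32 of these stayed called under every alternative and 0 changed direction. The share of all genes called in each comparison is given above for the main fit only. The number of members called moved by over 1.5 times as follows, and the cause was not tested. The share of all genes called under each alternative is not reported here, so a higher count does not by itself set the members apart. For CDDO-Me in media (1), it was 0 with no filter on low values, 5 with array weights, 2 with the replicate block, 3 without the libraries with few genes, 2 with only the groups compared and 0 to 1 with each library left out. In WT CM (9) it was 5 with no filter and 5 to 7 with each library left out. In NRF2 KO CM (2) it was 1 with RLE scaling, no filter, no variance trend or the few-gene libraries out, 5 with array weights, 4 with the replicate block, 0 with only the groups compared and 0 to 2 with each library left out. For WT CM against media with vehicle (2), array weights gave 8, the replicate block 6, the few-gene libraries out 5 and only the groups compared 6; for KEAP1 KO CM (2) these gave 7, 4, 6 and 6. Array weights also gave 2 for NRF2 KO CM against media with CDDO-Me (0), 1 for KEAP1 KO against WT CM with vehicle (0) and 1 with CDDO-Me (0), and 5 for WT against NRF2 KO CM with vehicle (3), where the few-gene libraries out gave 5 and single libraries out 2 to 4. For the CDDO-Me effect in WT CM against media (2), array weights gave 7, the few-gene libraries out 5, only the groups compared 6 and single libraries out 1 to 2. In KEAP1 KO CM against media (2), array weights gave 6 and single libraries out 1 to 3. In WT against NRF2 KO CM (1), no scaling gave 2, array weights 8, the replicate block 3, the few-gene libraries out 5 and single libraries out 1 to 4.

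Replicate numbers did not pair every library in the other comparisons. There the replicate block also called Apoe under CDDO-Me in KEAP1 KO CM (adjusted p = 0.0218, limma), Nr1h3 (4.45e-05) and Apoe (0.00668) for KEAP1 KO CM against media with vehicle, and Nr1h3 between WT and NRF2 KO CM with CDDO-Me (0.000212). Of the differences in CDDO-Me effect, it called Nr1h3 in WT CM against media (0.00994) and against NRF2 KO CM (0.0088), Apoe in WT against NRF2 KO CM (0.0489) and Apoc2 in KEAP1 KO CM against media (0.0315). Beside these and the block values in the report, it changed no other member's call. The table holds TPM without counts, so what sequencing depth limits cannot be given; low Apoc1 values depend most on the pseudocount.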
